A study of Mus musculus with 2 samples.

Results

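The genes of the replication-dependent histone clusters were examined in regenerating mouse liver with and without PPARβ. Members were taken from the authors' deposited table of expression by locus, as every row with a gene symbol that starts with Hist1h, Hist2h, Hist3h or Hist4h and that was not marked as too deep to estimate. The rule gave 68 loci, which carry 70 gene symbols, out of 38016 loci. No member was marked as too deep, and no member symbol stood in more than 1 locus. For 4 loci the row names several genes, and these were kept as single values.

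Livers of wild-type mice (WT) and of mice labelled PPARbeta-null (KO), which lack PPARβ, gave 1 sequencing library per genotype. The mice of both groups were C57BL/6 males, labelled as 4 months old, and the other notes on the series give other ages. According to the methods, the livers were collected 48 hr after removal of part of the liver (partial hepatectomy, PH). The sources used here do not say how many mice were in each library or which part of the Ppard gene is disrupted. Whole-gene Ppard was 2.67 FPKM in the WT and 2.42 FPKM in the KO library, so this value does not check the genotype. FPKM are fragments per kilobase of transcript, scaled to all mapped fragments, and are a level per length. With 1 library per genotype there was no spread between mice and no test of the genotype, and every difference below is between 2 libraries.

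Nucleosomes hold the core histones H2A, H2B, H3 and H4, and H1 binds the DNA between them. Cells that copy their DNA need new histones in bulk during S phase, and the clustered genes supply them. Their mRNAs have no introns and end at a short stem-loop in place of a poly(A) tail, and stem-loop binding protein (SLBP) holds this hairpin during processing, export, translation and decay. Some clustered genes can also give polyadenylated mRNA from a signal farther downstream, which is known from differentiated cells. After PH hepatocytes re-enter the cell cycle. The library kit used (TruSeq RNA) captures poly(A) RNA with oligo-dT, so that mRNA without a tail is largely lost before sequencing.

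The hairpin is the feature that defines these mRNAs, and it was read from the genome for each gene. A perfect hairpin with a stem of 6 base pairs and a loop of 4 bases was found within 150 bases after the stop codon in 61 of the 67 coding member genes with an annotated stop codon. It began 22 to 59 bases after the stop codon, with a median of 31. The search accepted only stems that begin with GG and loops that begin with TT, so these bases were set in advance. Within these limits 6 different hairpins occurred, and the stem separated H4 from the other classes. They are shown here in their genes with flanking bases in lower case and the 16 bases of the hairpin in capitals, as DNA of the coding strand (NCBIM37).
Hist1h1c: aaaaGGCTCTTTTCAGAGCCaccac
Hist1h2bk: caaaGGCTCTTTTAAGAGCCactaa
Hist2h2ac: aaaaGGCTCTTTTTAGAGCCaccaa
Hist1h4m: taaaGGCCCTTTTCAGGGCCatcca
Hist1h4i: taaaGGCCCTTTTTAGGGCCaccac
Hist1h4b: aaaaGGTCCTTTTCAGGACCactca
The first form, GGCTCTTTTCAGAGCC, was carried by 39 genes and the second, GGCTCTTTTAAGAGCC, by 9, all of them H1, H2A, H2B or H3 genes. The form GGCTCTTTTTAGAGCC was found in 1 H2A gene, Hist2h2ac. The H4 genes carried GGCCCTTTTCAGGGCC in 8 genes, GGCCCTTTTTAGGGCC in 2 and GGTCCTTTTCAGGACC in 2. The hairpin of Hist1h2bk lies at chr13:22128169-22128184 on the plus strand, directly after the annotated end of its transcript, and that of Hist1h1c at chr13:23831381-23831396, with 839 annotated bases after it. No such hairpin was found in the searched window of Hist2h2be, an H2B gene whose annotated transcript of 2618 bases is unspliced and holds a poly(A) signal near its end.

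In these libraries the clustered histone mRNAs were low apart from a few loci. Summed over the 68 loci, they came to 207.6 FPKM in the WT and 239.4 FPKM in the KO library, which is 0.0381% and 0.0434% of the summed FPKM of all loci. The KO/WT ratio of these sums was 1.15. The WT/KO ratio was 0.867, with a 95% interval of 0.843 to 0.893 that covers counting error only. The single locus of Hist1h2bc and Hist1h2bg held 50.8% of the sum of the WT library and 48.2% of that of the KO library. The 4 loci with a mean FPKM of at least 10 held 83.8% and 83.4%. A mean FPKM of at least 1 was reached by 19 of the 68 loci (27.9%), against 34.1% of all 32320 named entries of the table.

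The values were estimated from few fragments for most members. On a transcript of 1 kb, 1 FPKM was worth roughly 53.3 fragments (WT library) and 55.8 fragments (KO library), as read from the steps in the low values of 3975 single-exon genes. On 500 bases, a length near that of many histone mRNAs, it was worth 26.6 and 27.9. By this estimate 29 of the 68 loci had 3 fragments or fewer in at least 1 library, and 32 had 10 or more in at least 1. Both libraries listed 4 loci at 0, which were Hist1h2aa, Hist2h2ab, Hist2h2bb and Hist4h4. Hist3h2ba and Hist3h2bb-ps were listed at 0 in the WT library alone, with 0.0285 and 0.041 FPKM in the KO library, and Hist1h2ak in the KO library alone, with 0.0554 FPKM in the WT library. A listing at 0 can be a failed estimate, and these values are near that of 1 fragment.

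Between the libraries, the histone genes did not move together. A mean FPKM of at least 0.1 was reached by 50 loci, 10 of them with 1 library below that level, and 18 loci stayed under it. Of the 50 loci, 21 were lower and 29 higher in the KO library (42% and 58%). Over all 14966 entries with such a mean, 74.8% were lower and 25.2% higher. More than 2-fold lower in the KO library were 12 of the 50 (24%), where the background over all entries was 13.7%. More than 2-fold higher were 4 (8%), where the background was 2.8%. At 3-fold, 2 loci were lower against 6.54% of all entries, and at 1.5-fold, 10 were higher against 6.09%. The median log2 difference, KO minus WT with 0.1 FPKM added to each value, was 0.11 over these 50 loci and 0.07 over the 64 loci above 0 in either library. Over all 14966 entries it was -0.25. Relative to the median of the 11025 entries with a mean of 1 FPKM or more (-0.24), 15 of the 50 loci were lower and 35 higher, and 8 were over 2-fold lower and 7 over 2-fold higher. With the libraries scaled to equal upper quartiles, the last counts were 5 and 7. For entries with a mean FPKM of 0.1 to 0.5, the range that holds 27 of the 50 loci, 29.2% were over 2-fold lower and 6.52% over 2-fold higher. Of these 27 loci, 9 were over 2-fold lower and 2 over 2-fold higher, so that the low members were near the background of low genes in both directions.

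Of the 12 loci over 2-fold lower, 9 had a mean FPKM under 0.5 and 6 had 3 fragments or fewer in a library. Below 0.1 FPKM in the KO library were 6 of the 12, which passed the filter through the WT library alone. That these 6 were lower follows in part from the filter. Likewise Hist2h4, among the 4 loci over 2-fold higher, was below 0.1 FPKM in the WT library. The exact 95% counting interval of the ratio lay below 1 for 4 of the 12, namely Hist2h2be, Hist3h2a, Hist1h4m and Hist1h3g. Of the 4 loci over 2-fold higher, Hist1h2bk, Hist1h2bl, Hist1h2ae and Hist2h4, the interval lay above 1 for 3 and reached below 1 for Hist1h2ae. Hist1h4m, Hist1h3g, Hist1h2ae and Hist2h4 were picked out here after their values were seen.

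**Figure D1:**
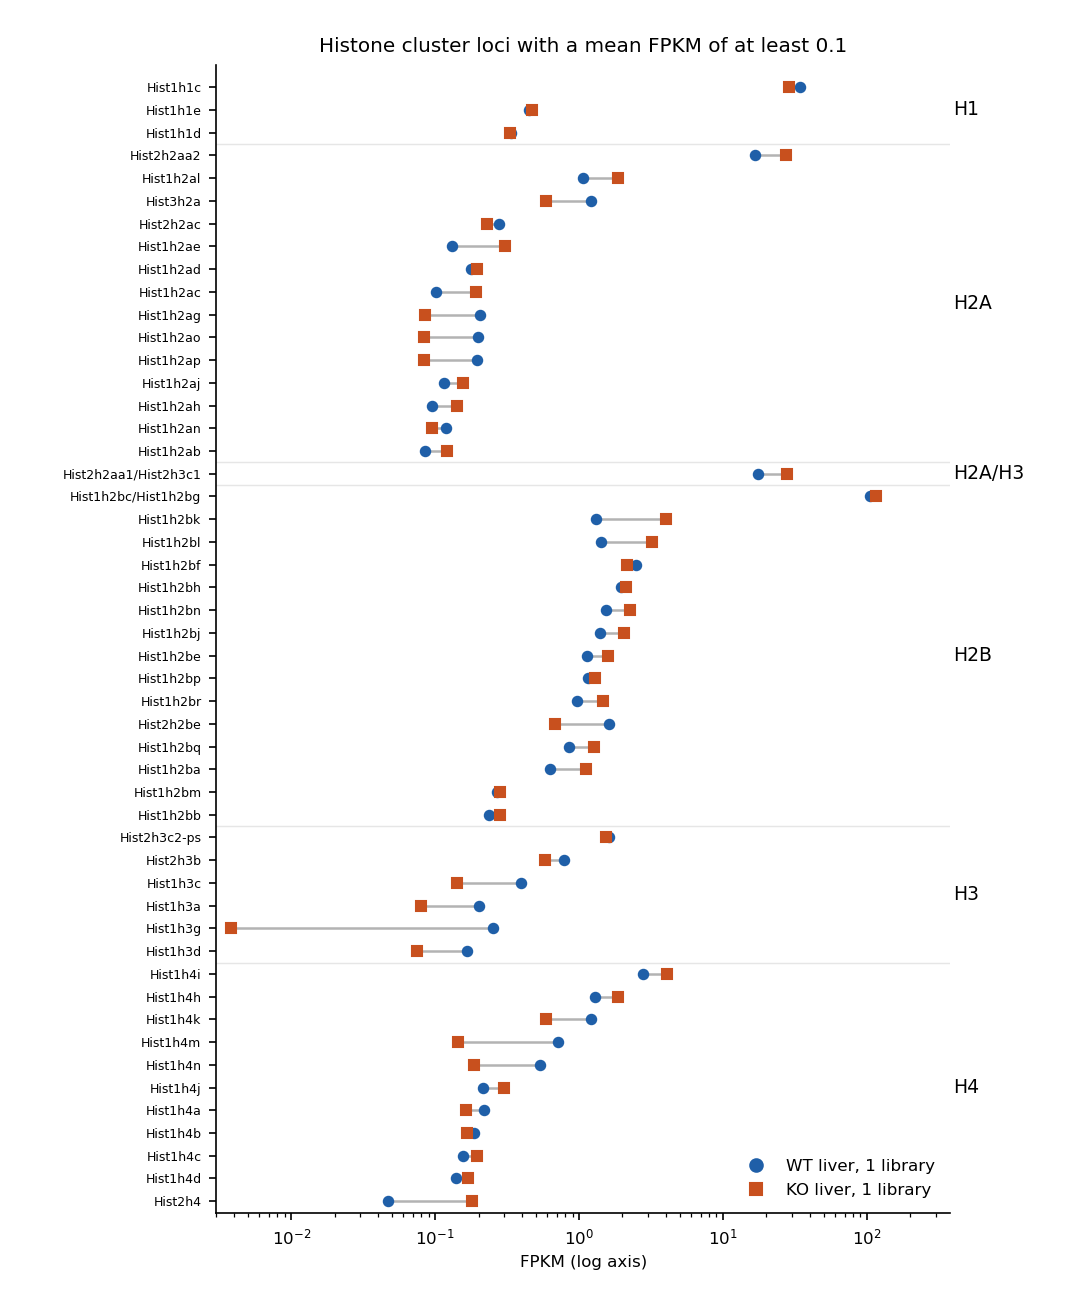
FPKM (log axis) of the 50 histone cluster loci with a mean FPKM of at least 0.1, grouped by histone class, with circles for the WT library and squares for the KO library. Hist1h2bc/Hist1h2bg, Hist1h1c, Hist2h2aa1/Hist2h3c1 and Hist2h2aa2 stand above 10 FPKM in both libraries, and all 6 H3 loci shown have the KO value to the left of the WT value.

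H2B, which pairs with H2A in the nucleosome, was the most abundant class and the one most often higher in the KO library. Its 18 loci summed to 122.3 FPKM in the WT and 139.2 FPKM in the KO library. Of the 15 H2B loci past the filter, 13 were higher and 2 lower, with a median log2 difference of 0.45. The background of higher entries was 25.2%. Relative to the shift of all genes 14 of the 15 were higher. All of them except Hist2h2be, 1 of the 2 lower, share stretches of 100 bases with other H2B genes, so their values are not independent. The joint locus of Hist1h2bc (chr13:23776068-23784357, plus strand) and Hist1h2bg (chr13:23663265-23663882, plus strand) had 105.4 FPKM in the WT and 115.4 FPKM in the KO library. The KO/WT ratio was 1.09, with a counting interval of 1.05 to 1.15, so that the libraries differed little at the most abundant member. Without this locus, the other 17 H2B loci summed to 17.0 FPKM in the WT and 23.9 FPKM in the KO library.

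The H2B genes over 2-fold higher stood near either end of the first gene group on chromosome 13. Hist1h2bk (chr13:22127690-22128168, plus strand, 1 exon) had 1.32 FPKM in the WT and 4.02 FPKM in the KO library. This was a KO/WT ratio of 3.04, with a counting interval of 2.03 to 4.56 from about 33.7 and 107.4 fragments. Hist1h2bl (chr13:21807632-21808012, minus strand) had 1.43 FPKM in the WT and 3.23 FPKM in the KO library, a ratio of 2.26 with an interval of 1.45 to 3.64. Both genes share most of their sequence with other H2B genes, since 70.3% and 62.1% of their 100-base windows, the length of a read, also occur in another gene. The division of such reads between the genes was not tested.

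Hist2h2be went the other way. This gene of the chromosome 3 cluster (chr3:96025044-96027661, plus strand) had 1.6 FPKM in the WT and 0.677 FPKM in the KO library, 2.37-fold lower, with a counting interval of the KO/WT ratio of 0.331 to 0.539. None of its 100-base windows occurs in another gene, and about 223.5 and 98.9 fragments lie behind the values. Among the 12 loci over 2-fold lower it had the most fragments.

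Other H2B genes had ratios between those of these genes. Hist1h2bf had 2.47 FPKM in the WT and 2.17 FPKM in the KO library, lower by 1.14-fold with an interval of the KO/WT ratio of 0.599 to 1.28. Relative to the shift of all genes it lay slightly above the median (centred log2 difference 0.06), so its direction depends on the scale. Hist1h2bh had 1.96 FPKM in the WT and 2.10 FPKM in the KO library. Neither of these differences exceeded counting error.

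Hist1h2bn (1.53 and 2.26 FPKM, WT then KO) and Hist1h2bj (1.40 and 2.07 FPKM) both had KO/WT ratios of 1.48, and their intervals of 0.922 to 2.40 and 0.926 to 2.28 reached below 1. Hist1h2bp had 1.15 FPKM in the WT and 1.29 FPKM in the KO library, a ratio of 1.12 with an interval of 0.662 to 1.90. Hist1h2ba had 0.630 FPKM in the WT and 1.12 FPKM in the KO library, a ratio of 1.78 with an interval of 0.863 to 3.77. Hist1h2ba is known as the H2B of the testis. On the scale of the deposited FPKM, these 4 genes were higher in the KO library by amounts within counting error.

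Hist1h2be, Hist1h2br and Hist1h2bq, which have spliced transcripts, were higher beyond counting error, unlike Hist1h2bp, which is annotated as spliced too. Hist1h2be, in a row shared with Gm11398, had 1.14 FPKM in the WT and 1.58 FPKM in the KO library, a ratio of 1.39 with an interval of 1.12 to 1.73. Hist1h2br had 0.965 and 1.46 FPKM in the WT and KO libraries, a ratio of 1.51 with an interval of 1.18 to 1.93. Hist1h2bq had 0.850 and 1.27 FPKM, a ratio of 1.5 with an interval of 1.15 to 1.97. Hist1h2bq and Hist1h2br are near copies of each other, with 95.8% of their windows in another gene, and their values are not independent.

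H2A lines the surface of the nucleosome, and its genes were led by a pair of copies on chromosome 3. Hist2h2aa2 (chr3:96043639-96044216, minus strand) had 16.8 FPKM in the WT and 27.5 FPKM in the KO library. The joint row of Hist2h2aa1 (chr3:96049461-96050038, plus strand) and Hist2h3c1 (chr3:96049477-96052431, plus strand), an H3 gene, had 17.4 FPKM in the WT and 28.0 FPKM in the KO library. The ratios were 1.64 (interval 1.47 to 1.83) and 1.61 (interval 1.44 to 1.80). Every 100-base window of Hist2h2aa1 and Hist2h2aa2 occurs in another gene, so these copies cannot be told apart by reads and their values are not independent. Of the windows of Hist2h3c1, 36.1% occur in another gene.

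The other 18 H2A loci held little RNA. Hist1h2al (chr13:51298057-51298434, minus strand), which stands alone far from the clusters, had 1.06 FPKM in the WT and 1.86 FPKM in the KO library, a ratio of 1.76 with an interval of 1.02 to 3.17. Of its windows, 30.5% occur in other genes, among them the more abundant Hist2h2aa1 and Hist2h2aa2. The division of such reads was not tested. Hist3h2a (chr11:58768187-58770176, plus strand) had 1.21 FPKM in the WT and 0.593 FPKM in the KO library, 2.05-fold lower, with an interval of the KO/WT ratio of 0.357 to 0.662. Its row also names Trim17, and the value is that of the joint locus. Of the 14 H2A loci past the filter, 6 were lower and 8 higher, 4 and 1 of them by more than 2-fold, with a median log2 difference of 0.16. The interval excluded 1 for 3 of these 14. Among the 4 lower, Hist1h2ag, Hist1h2ao and Hist1h2ap, named after their values were seen, were below 0.1 FPKM in the KO library. They passed the filter through the WT library alone, so their being lower follows in part from it. Their intervals included 1, as did that of Hist1h2ae, the 1 higher. Every 100-base window of Hist1h2ao and Hist1h2ap occurs in another gene, so these values are not independent. Over all entries 13.7% were over 2-fold lower and 2.8% over 2-fold higher.

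H3, the core histone whose tail carries many regulatory marks, was the class most often lower in the KO library. All 11 loci that name H3 genes alone were above 0, and all 11 were lower, where the background of lower entries was 74.8%. Each of the 11 shares 100-base windows with other H3 genes, from 15.2% (Hist1h3e) to 77.1% (Hist2h3b) of its windows. Their values are therefore not independent. Relative to the shift of all genes, 9 of them were lower too. The 11 loci summed to 3.98 FPKM in the WT and 2.63 FPKM in the KO library. Of the 6 past the filter, 4 were more than 2-fold lower, and the median log2 difference was -0.68 (-0.44 relative to the shift). All 4 had a mean FPKM of 0.1 to 0.5, where 29.2% of entries were over 2-fold lower, beside 13.7% of all entries. Of these 4 H3 loci, 3 were below 0.1 FPKM in the KO library and passed the filter through the WT library alone. Their being lower follows in part from the filter. The 3 most abundant were Hist2h3c2-ps, Hist2h3b and Hist1h3c.

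The H3 values rested on few fragments. Hist2h3c2-ps, named as a pseudogene (chr3:96042040-96043050, minus strand), had 1.61 FPKM in the WT and 1.54 FPKM in the KO library. Its ratio of 0.959 lay within counting error, and relative to the shift of all genes it was higher (centred log2 difference 0.18). Hist2h3b had 0.789 FPKM in the WT and 0.580 FPKM in the KO library, a ratio of 0.735 with an interval of 0.355 to 1.46. Hist1h3c had 0.392 FPKM in the WT and 0.142 FPKM in the KO library, 2.76-fold lower, with an interval of the KO/WT ratio of 0.103 to 1.10. Hist1h3g had 0.254 FPKM in the WT library, about 7.17 fragments, and 0.0038 FPKM in the KO library, which is less than 1 fragment. Only for Hist1h3g did the interval exclude 1 among the 6, with an upper bound of 0.662. The 5 H3 loci under the filter ranged up to 0.14 FPKM in the WT library.

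H4 forms the nucleosome core with H3, yet its genes were divided. Hist1h4i (chr13:22132685-22133221, minus strand), the most abundant, had 2.77 FPKM in the WT and 4.07 FPKM in the KO library, a ratio of 1.47 with an interval of 1.10 to 1.98. Hist1h4h had 1.29 FPKM in the WT and 1.86 FPKM in the KO library, a ratio of 1.44 with an interval of 0.918 to 2.36. Hist1h4k had 1.21 FPKM in the WT and 0.585 FPKM in the KO library, 2.07-fold lower, with an interval of the KO/WT ratio of 0.2 to 1.07. On the scale of the deposited FPKM, only the difference of Hist1h4i among these 3 was larger than counting error.

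At lower levels, Hist1h4m had 0.714 FPKM in the WT and 0.144 FPKM in the KO library, 4.97-fold lower, from about 15.3 and 3.22 fragments, and the interval of the KO/WT ratio was 0.0354 to 0.675. Of its windows, 88.1% occur in another gene. Hist2h4 had 0.0467 FPKM in the WT and 0.179 FPKM in the KO library, a ratio of 3.83 with an interval of 1.23 to 15.7. Of the 11 H4 loci past the filter, 5 were lower and 6 higher, with a median log2 difference of 0.17.

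H1, the linker histone, was nearly all Hist1h1c. This gene (chr13:23830676-23832235, plus strand, 1 exon) had 34.3 FPKM in the WT and 28.7 FPKM in the KO library, 1.19-fold lower, with an interval of the KO/WT ratio of 0.793 to 0.884. Relative to the shift of all genes the log2 difference was -0.02, and with equal upper quartiles it was 0.02, so the direction depends on the scale. Hist1h1e had 0.447 FPKM in the WT and 0.470 FPKM in the KO library, and Hist1h1d had 0.336 and 0.331 FPKM. Both pairs of values lay within counting error. The other 3 H1 loci, among them Hist1h1t, an H1 known from the testis, did not pass the filter, and all 3 were lower in the KO library.

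**Figure D2:**
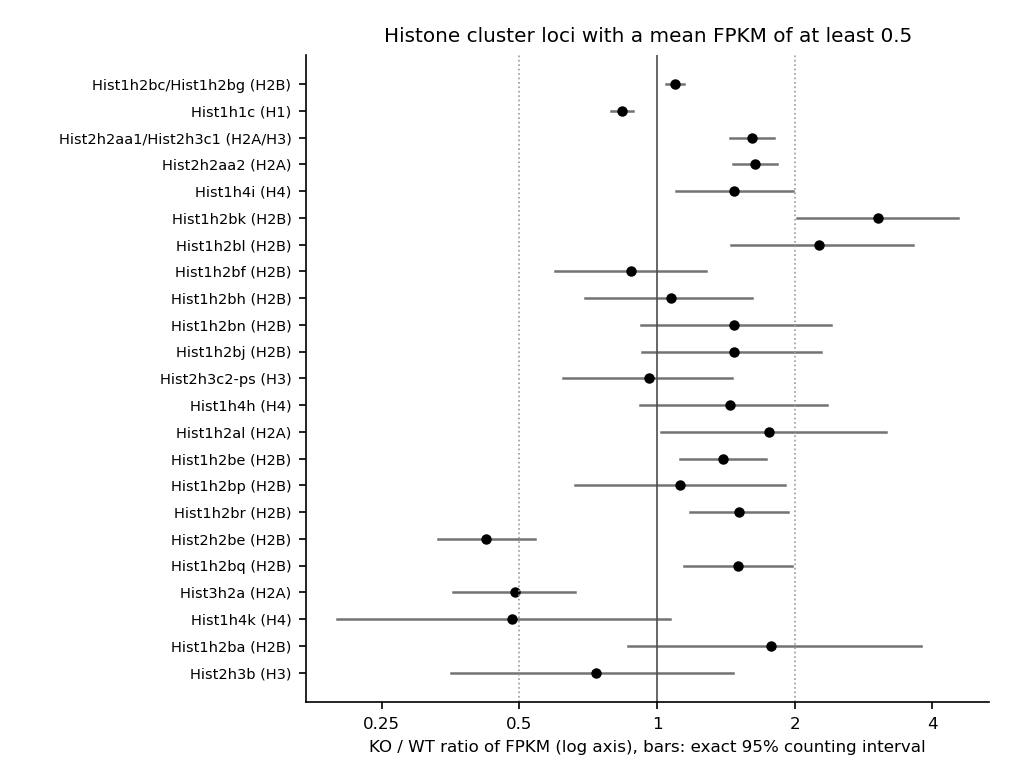
KO/WT ratio of FPKM (log axis) for the 23 histone cluster loci with a mean FPKM of at least 0.5, with bars for the exact 95% counting interval and dotted lines at 0.5 and 2. Hist1h2bk lies at 3.04 with its bar above 2, Hist2h2be at 0.423 with its bar below 1, and the bar of Hist1h2bc/Hist1h2bg is the narrowest, at 1.05 to 1.15.

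Levels differed by the annotated end of the locus. A poly(A) signal (AATAAA or ATTAAA in the last 50 annotated bases of a transcript) was found for 17 of the 68 loci, Hist1h2bc, Hist1h1c and Hist2h3c1 among their genes. These 17 had a median of the mean FPKM of 1.14, and 10 of them reached 1. The other 51 loci had a median of 0.147, and 9 of them reached 1. Loci with the signal held 81.2% of the summed member FPKM of the WT library and 77.6% of that of the KO library. In the joint rows, Hist1h2bc has the signal but Hist1h2bg does not, and Hist2h3c1 has it but Hist2h2aa1 does not. The FPKM of these rows cannot be assigned to the gene with the signal. Hist2h2aa2, which reads cannot tell apart from Hist2h2aa1, is among the loci without it. The annotated end of Hist1h2bc lies 7826 bases beyond its hairpin, across an intron, that of Hist1h1c 839 bases, that of Hist1h2be 1789 bases and that of Hist2h3c1 1166 bases. For Hist1h2bk and Hist1h2bl the annotated transcript ends before the hairpin does.

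**Figure D3:**
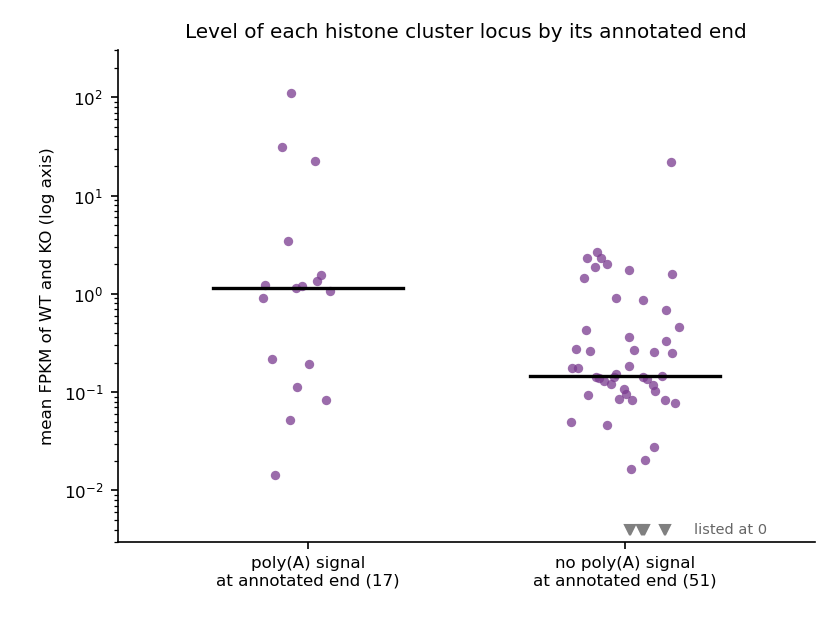
Mean FPKM of the WT and KO libraries (log axis) of each of the 68 histone cluster loci, split by whether a poly(A) signal lies near the annotated end, with bars for the medians of 1.14 (17 loci) and 0.147 (51 loci). Triangles mark the 4 loci listed at 0, which all lie in the group without a signal.

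Between the libraries, the 17 loci with the signal had 4 lower and 10 higher among 14 past the filter, with a median log2 difference of 0.47. The 51 without it had 17 lower and 19 higher among 36, with a median of 0.05. More than 2-fold lower were 2 of the 14 and 10 of the 36. The background was 13.7% over all entries and 29.2% over those with a mean FPKM of 0.1 to 0.5. The loci without the signal had the lower levels, and the part of level in these counts was not tested. The share of polyadenylated mRNA among all histone mRNA was not measured.

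By position, 24 loci lay at chr13:21807632-22135545, 30 at chr13:23622919-24026720 and 9 at chr3:96023839-96082924. The first group summed to 15.9 FPKM in the WT and 22.0 FPKM in the KO library, a KO/WT ratio of 1.39. The second summed to 150.9 and 156.1 FPKM, a ratio of 1.03, and the chromosome 3 group to 38.5 and 58.7 FPKM, a ratio of 1.52. Most of the chromosome 3 sum was in the Hist2h2aa copies, and without the 4 loci with a mean FPKM of at least 10 all members summed to 33.7 FPKM in the WT and 39.7 FPKM in the KO library.

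Many H2A and H2B genes start side by side on opposite strands, and 11 such pairs were found with rows of their own and at most 305 bases between the genes. In all 11 the H2B gene had the higher mean FPKM. In 4 pairs both genes differed in the same direction between the libraries, and in 7 they did not, or 1 gene was at 0 in both. Relative to the shift of all genes, 5 pairs had the same direction. No H2A gene of these pairs had a counting interval that excluded 1, so the directions of the H2A genes lay within counting error. Hist1h2bk and its neighbour Hist1h2ah were both higher in the KO library, with Hist1h2ah at 0.0948 and 0.141 FPKM in the WT and KO libraries. About 2.68 and 4.17 fragments lie behind the values of Hist1h2ah, and its interval of the KO/WT ratio was 0.215 to 8.69. Hist1h2bj was higher while its neighbour Hist1h2ag had 0.204 FPKM in the WT and 0.0847 FPKM in the KO library. The interval of Hist1h2ag was 0.0364 to 2.33, and that of Hist1h2bj included 1 too. In 1 pair, Hist1h2aj and Hist1h2bm, the annotated genes overlap by 88 bases. Reads there cannot be assigned to a strand with a kit that does not mark it.

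Promoters were matched in RefSeq for 60 of the 70 symbols, and each was searched on both strands from 250 bases before to 50 bases after the start site. The CCAAT box (CCAAT) was found in 85% of member promoters against 37.4% of all 32851 promoters. It was present in every matched H1, H2A, H2B and H3 promoter and in 3 of the 12 H4 promoters. A TATA box (TATAAA) was found in 58.3% against 13.6%. The octamer (ATTTGCAT), the site known to be bound by Oct-1 in H2B promoters, was found in 7 of 17 H2A and 6 of 15 H2B promoters and in none of the other classes, with 1.74% over all promoters. E2F sites (TTTGGCGC or TTTCGCGC) were found in 5 H2A and 4 H2B promoters, with 0.813% over all promoters. Each of these 4 H2B promoters overlaps that of an H2A neighbour on the opposite strand that was counted too. The pairs are Hist1h2bk and Hist1h2ah, Hist1h2bp and Hist1h2an, Hist1h2bj and Hist1h2ag, and Hist1h2bf and Hist1h2ad. A site in such an overlap counts for both genes, for the other motifs as well, so these promoters are not independent. The H1 box (AAACACA) was found in 5 of 6 H1, 2 of 17 H2A and 2 of 15 H2B promoters, with 7.18% over all promoters.

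The promoters of a member that was higher, of the most abundant H1 gene and of an H1 gene of low level are shown (GRCm38.p6, the 250 bases before the RefSeq start site, with the motifs named above in capitals on either strand). That of Hist1h2bk lies at chr13:22035571-22035820 on the plus strand, that of Hist1h1c at chr13:23738557-23738806 on the plus strand and that of Hist1h1b at chr13:21780626-21780875 on the minus strand.
Hist1h2bk: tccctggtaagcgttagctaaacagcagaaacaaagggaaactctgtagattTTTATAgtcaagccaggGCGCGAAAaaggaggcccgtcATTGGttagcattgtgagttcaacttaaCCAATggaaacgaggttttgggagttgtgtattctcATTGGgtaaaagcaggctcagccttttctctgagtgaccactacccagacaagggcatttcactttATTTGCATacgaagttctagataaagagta
Hist1h1c: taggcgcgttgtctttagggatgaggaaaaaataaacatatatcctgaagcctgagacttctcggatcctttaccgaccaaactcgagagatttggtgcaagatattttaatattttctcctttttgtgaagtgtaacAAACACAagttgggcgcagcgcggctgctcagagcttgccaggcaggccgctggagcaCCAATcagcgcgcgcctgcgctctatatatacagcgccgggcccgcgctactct
Hist1h1b: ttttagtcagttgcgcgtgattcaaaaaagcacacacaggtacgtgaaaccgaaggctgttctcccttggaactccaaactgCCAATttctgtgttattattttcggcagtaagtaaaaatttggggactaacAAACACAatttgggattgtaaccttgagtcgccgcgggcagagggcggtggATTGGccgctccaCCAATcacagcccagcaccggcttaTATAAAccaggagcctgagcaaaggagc
Hist1h2bk held an E2F site, 3 CCAAT boxes and the octamer, whose first base lay at position -30 from the start site. Its TATA box letters lay far upstream and read TATAAA on the opposite strand only, beside the divergent neighbour Hist1h2ah. Hist1h1c and Hist1h1b both held the H1 box and a CCAAT box, while Hist1h1c had 34.3 FPKM and Hist1h1b 0.166 FPKM in the WT library and 0.0222 FPKM in the KO library.

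The replication genes of the same phase differed by more between the libraries than the histone genes. All 19 S phase genes in the table were lower in the KO library, each by more than 2-fold, with a median log2 difference of -2.87. Among all entries 74.8% were lower and 13.7% over 2-fold lower, with a median of -0.25. Their summed level was 338.5 FPKM in the WT and 43.9 FPKM in the KO library. The 3 most abundant were Pcna (66.8 and 13 FPKM, WT then KO), the sliding clamp of DNA polymerase, Rrm2 (47.5 and 1.03 FPKM), the small subunit of ribonucleotide reductase, and Tk1 (27.9 and 2.32 FPKM), thymidine kinase. The helicase genes Mcm2, Mcm3, Mcm4, Mcm5, Mcm6 and Mcm7, the last in a row with Mir25 and Mir93, were 4.89- to 24.6-fold lower. Rrm1, Tyms, Pola1, Cdc6, Cdk2, Ccne1, Ccne2 and E2f1 were 2.46- to 32.4-fold lower. Ccna2, the cyclin of S phase and G2, had 15.3 FPKM in the WT and 0.227 FPKM in the KO library, 67.2-fold lower. In bulk liver, fewer cells of a kind and less RNA per cell cannot be told apart.

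Of the 11 histone variants measured, which stand outside the clusters, 9 were lower and 2 higher in the KO library, with a median log2 difference of -0.43. Among all entries 74.8% were lower, and relative to the shift the variants' median was -0.19, with 8 lower and 3 higher. The most abundant were H3f3b (137.1 and 109.2 FPKM, WT then KO), H3f3a (80.5 and 61.9 FPKM), both coding for H3.3, and H2afz. H2afz, the gene of H2A.Z, had 97.5 FPKM in the WT and 19.3 FPKM in the KO library, 5.05-fold lower. Cenpa, the H3 variant of centromeres, had 19.2 FPKM in the WT and 1.58 FPKM in the KO library, 12.1-fold lower. The third variant past 2-fold, H1fx, had 1.49 and 0.0787 FPKM and is named here after its values were seen. H1f0, the linker histone known from resting cells, had 38.4 FPKM in the WT and 41.9 FPKM in the KO library.

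The factors that make and process histone mRNA were mostly lower in the KO library, 16 of 17, with a median log2 difference of -0.51 and 5 over 2-fold lower, beside 74.8% lower and 13.7% over 2-fold lower among all entries. Relative to the shift of all genes 14 were lower and 3 higher, with a median of -0.27. Slbp had 15.5 FPKM in the WT and 6.56 FPKM in the KO library, 2.37-fold lower. Eri1, the exonuclease that trims histone mRNA ends, had 5.37 and 2.18 FPKM, 2.47-fold lower, and Casp8ap2 (FLASH), which recruits the cleavage complex, had 1.73 and 0.733 FPKM, 2.35-fold lower. The others past 2-fold were Lsm11, a protein of the U7 particle (2.07-fold lower), and Zfp473 (2.65-fold lower), at under 1 FPKM and named after their values were seen. The 3 most abundant were Cpsf2 (69.2 and 50.8 FPKM, WT then KO), Sympk (25.4 and 20.8 FPKM) and Ddx19b (17.0 and 14.7 FPKM, in a row with Ddx19a).

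Of the 18 histone chaperones and assembly factors, 16 were lower and 2 higher, with a median log2 difference of -0.48. Without the shift taken off, 74.8% of all entries were lower and 13.7% over 2-fold lower. Relative to the shift 13 of the chaperones and assembly factors were lower and 5 higher, with a median of -0.24. The 4 over 2-fold lower were Asf1b (5.27 FPKM in the WT and 0.223 FPKM in the KO library, 23.6-fold), Chaf1a (18.3-fold) and Chaf1b (8.84-fold), subunits of the assembly factor CAF-1, and Hat1 (4.59-fold), which acetylates new H4. The most abundant were Rbbp4 (48.7 and 36.7 FPKM), Ipo4 (45.8 and 44.1 FPKM, in a row with Tm9sf1) and Rbbp7 (43.2 and 23.0 FPKM). All 13 factors of poly(A) 3′ end formation were lower, none by more than 2-fold, with a median log2 difference of -0.36, and 10 were lower relative to the shift of all genes. Their most abundant genes were Pabpn1 (52.2 and 43.2 FPKM, in a row with Bcl2l2), Papola (43.1 and 30.0 FPKM) and Fip1l1 (13.1 and 11.1 FPKM).

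**Figure D4:**
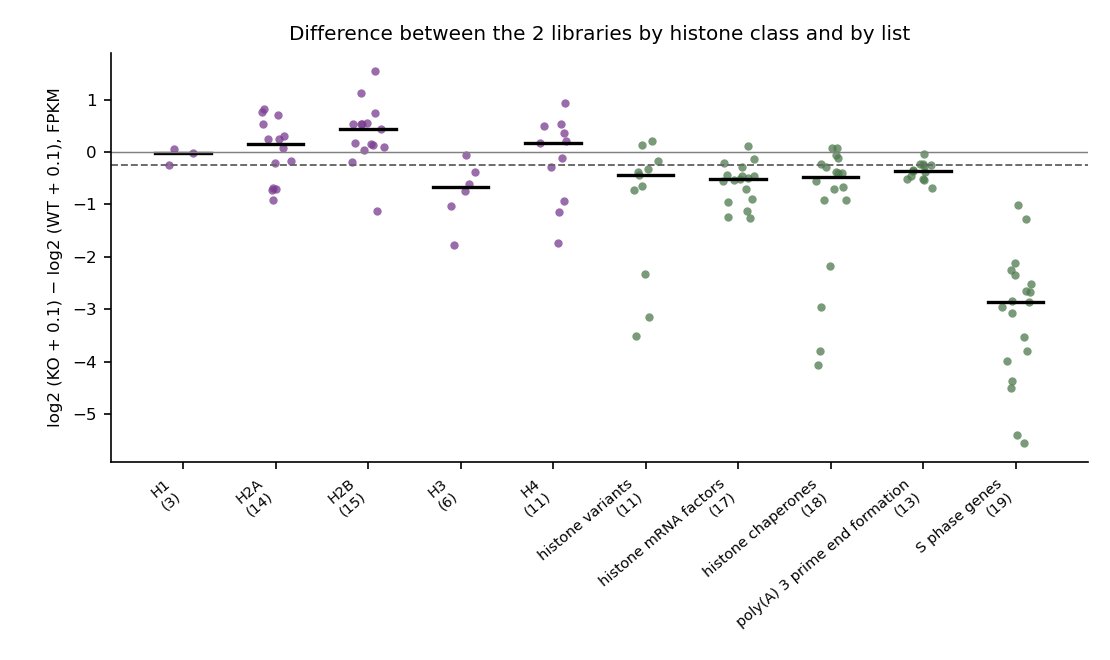
Log2 difference, KO minus WT, with 0.1 FPKM added to each value, for the members past the filter by histone class and for the genes of 5 other lists. Points are loci or genes, bars are medians, numbers in brackets are counts and the dashed line is the median of all genes (-0.25). The S phase genes have a median of -2.87, and the medians of the histone classes lie between -0.68 (H3) and 0.45 (H2B).

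All 6 hepatocyte markers were abundant in both libraries, with sums of 12437 FPKM in the WT and 12569 FPKM in the KO library, and 3 were lower and 3 higher. The 3 most abundant, Apoa1, Serpina1a and Ttr, lay between 2406 and 4039 FPKM. The summed macrophage markers were 52.8 FPKM in the WT and 33.8 FPKM in the KO library, with 5 of 6 lower. The summed endothelial and stellate markers were 48.5 and 34.6 FPKM, and 84.8 and 59.5 FPKM, with all 6 of each lower. The background of lower entries was 74.8%. Relative to the shift of all genes, 5 of 6 macrophage, 5 of 6 endothelial and 5 of 6 stellate markers were lower. Their medians on that scale were -0.55, -0.49 and -0.31. Erythroid markers summed to 427.2 and 355.3 FPKM and neutrophil markers to 12.9 and 6.93 FPKM, with Mpo at 0 in both. Lymphocyte markers summed to 0.645 and 0.359 FPKM, with 3 of 6 past the filter. Markers over 2-fold lower with a mean of 1 FPKM or more were Cps1 (2.15-fold), Csf1r (2.43-fold), S100a8 (2.01-fold), Lyve1 (2.33-fold) and Acta2 (4.4-fold). The part of these cell types in the histone values was not tested.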

How the data were processed

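Hepatic RNA of 1 WT and 1 KO liver library was sequenced (100-base reads, paired end per the labels and single end per the paper's methods). The authors aligned the reads to mm9 with TopHat2 2.0.0, assembled transcripts with Cufflinks 1.3.0 and compared the libraries with Cuffdiff, and they deposited FPKM per locus. The deposited table also holds the authors' log ratio, test statistic, p-value, q-value and significance columns, which were not used.

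Both FPKM columns were taken as deposited. Scripts ran under Python 3.11.15 with scipy 1.17.1, numpy 2.4.6 and pandas 2.3.3, and matplotlib 3.10.9 drew the plots. Rows with the same entry in the gene column were summed. The 21 loci marked HIDATA were left out. To each value 0.1 FPKM was added before taking log2, so differences of low genes come out too small on that scale. Counts used loci whose mean FPKM reached 0.1. Fragments were estimated from the FPKM, the shortest annotated transcript and the value of 1 fragment, 0.0188 FPKM (WT library) and 0.0179 FPKM (KO library) on 1 kb, taken where the low values of single-exon genes of at least 300 bases piled up. Intervals of ratios are exact (Clopper-Pearson, 95%) and cover counting error only. They refer to the FPKM as deposited, and intervals relative to the shift of all genes were not computed. The steps were tested on simulated libraries.

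Gene positions, hairpins and 100-base windows were read from NCBIM37 with GENCODE vM1, in which 54 of the 68 loci have the interval of the gene. Another 8 share the interval chr13:23663265-23786046, for which gene positions are given. Starts of loci in the table count from 0 and were shifted to count from 1. Named were members whose mean FPKM reached 0.5 and the 3 most abundant of each class, and of the other lists the 3 most abundant genes and those past 2-fold whose mean FPKM reached 1. The members and gene lists were chosen with earlier results of these data known. The lists of replication, histone variant, histone mRNA, chaperone and poly(A) genes and of 7 cell types are from general knowledge. Cdt1 and H2bfm were not analysed here. The result of 1 gene under the naming rule is not reported here. No test across samples was possible. Alternatives covered the scaling, the pseudocount, the filter, the fold, joint rows, several rows per gene, depth and shared sequence.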

Additional observations from a re-analysis of the deposited data

How the results depend on the processing

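With 1 library per genotype no value has an error between mice, and leaving out a library was not run. No paired analysis was possible because the libraries share only the number 1 and there is 1 of each genotype. Few fragments and shared sequence limit most members.

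Genes whose mean FPKM reached 1 had a median log2 difference of -0.24, and both the scaling and the filter moved the values. With equal upper quartiles, 5 members in place of 12 were over 2-fold lower and 7 in place of 4 over 2-fold higher, the median log2 difference of members was 0.36 in place of 0.11, the WT/KO ratio of sums was 0.714 in place of 0.867, and the median of the histone mRNA factors was -0.24 in place of -0.51. Centred on that median of genes, 8 were over 2-fold lower and 7 over 2-fold higher, the members' median was 0.35, the ratio 0.735 and the factors' median -0.27. With members whose mean FPKM reached 1, 1 member was over 2-fold lower and 2 over 2-fold higher, with a median of 0.53. At 3-fold, 2 were lower, and at 1.5-fold, 10 were higher. With under 50% of windows shared, a setting chosen after seeing the data as were those for the higher count, 6 were over 2-fold lower. Without the member with the highest FPKM the ratio of sums was 0.824. With a pseudocount of 1 FPKM the factors' median was -0.41.

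The balance of 12 lower to 4 higher turned with equal upper quartiles (5 to 7) and with a mean FPKM of at least 1 (1 to 2), and Hist1h1c turned from lower to slightly higher with equal upper quartiles. The 4 members listed at 0 in both libraries were 4 with all rows whatever their status and with joint rows left out.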
